A study of Mus musculus with 7 samples.

Results

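miR-490 is a microRNA (miRNA), a short RNA that guides Argonaute proteins to messenger RNAs and lowers their output. It is cut from a hairpin inside an intron of Chrm2, the gene of the M2 muscarinic acetylcholine receptor. Both mature arms of the hairpin, mmu-miR-490-3p and mmu-miR-490-5p (miR-490-3p and miR-490-5p below), were taken by name from the count table, so 2 of its 1915 entries are described here. With earlier results of these data known, miR-490 was chosen by its levels in the CRC and healthy mice. The values of both arms in that comparison are therefore given as a description, without a p-value.

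Small RNA was sequenced from the colorectum of female C57BL/6 mice of wild-type genotype, aged 7 weeks at the start, with 1 profile per mouse. The 3 CRC mice (M4, M5 and M6) had been injected with 10 mg per kg of body weight of azoxymethane (AOM), which is carcinogenic to the colon. From 5 days later they drank 2.5% dextran sodium sulfate (DSS), an agent toxic to the colon epithelium, for 7 days, with 14 days of plain water to follow in each cycle; they are labelled stage T1, day 17. The 3 healthy mice (M1, M2 and M3) had been injected with 0.9% saline. The labels name 2 libraries of M1, and the table holds 1 column for that mouse. No group with AOM or DSS alone was analysed here, so effects of carcinogen, injury and tumour cannot be told apart.

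The M2 receptor is the most abundant muscarinic receptor of gut smooth muscle, where acetylcholine from enteric nerves drives contraction. A miRNA in an intron is usually transcribed with its host gene and then excised by Drosha and Dicer. One arm of the resulting duplex is loaded into Argonaute as the guide, and the other, the passenger, is mostly degraded. Targets are recognised chiefly through the seed, bases 2 to 8 of the mature miRNA. In human colorectal tumours miR-490-3p has been described as reduced.

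The Mir490 hairpin lies on GRCm38 at chr6:36421742-36421825, on the plus strand, and Chrm2 runs on the same strand at chr6:36388084-36528414. In both annotated Chrm2 transcripts the hairpin sits in intron 2. It starts 32990 bases after the end of exon 2. In the protein-coding transcript it ends 101344 bases before exon 3, the exon that carries the whole coding sequence. The hairpin and both mature arms are shown from RefSeq (GRCm38.p6), because the arms are compared throughout. In the hairpin the capitals mark the arms, 5p first. In the mature sequences they mark the seed.
Mir490 hairpin: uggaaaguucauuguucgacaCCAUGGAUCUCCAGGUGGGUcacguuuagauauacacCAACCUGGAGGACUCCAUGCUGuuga
miR-490-3p: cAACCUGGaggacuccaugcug
miR-490-5p: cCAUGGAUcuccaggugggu

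Both mature sequences were identical to those in the deposited table. In the minimum-energy fold of the 84-base hairpin (-32.3 kcal/mol, RNAfold), 16 of the 20 bases of the 5p arm paired with the 3p arm. The seeds differ, and so do the sites they match: a perfect seed match is CCAGGUU for miR-490-3p and AUCCAUG for miR-490-5p. No other entry of the table had the seed of either arm. A pair of entries, miR-582-3p and miR-5107-3p, shared bases 2 to 7 with miR-490-3p. The longest run of bases that another entry had in common with an arm, on either strand, was 10 for miR-490-3p and 9 for miR-490-5p.

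Total miRNA reads were between 3206127 and 6601899 in the CRC mice and between 8222508 and 15280434 in the healthy mice. Levels are given as CPM, the count scaled by library size, with library sizes adjusted by TMM, which sets the bulk of miRNAs equal between profiles. The TMM factors were between 0.949 and 1.55 in the CRC mice and between 0.582 and 1.105 in the healthy mice. The profiles were unevenly spaced: across 279 miRNAs, log2 CPM correlated at 0.966 between M4 (CRC) and M3 (healthy), at 0.985 between M5 and M6 and at 0.992 between M1 and M2, and at 0.910 or less between these pairs. M3 thus lay nearest to a CRC profile. edgeR's quasi-likelihood fit was run on the 878 miRNAs that passed the filter on low counts. With Benjamini-Hochberg adjusted p under 0.05, 20 (2.28%) were higher and 0 (0%) lower in CRC. At an unadjusted p under 0.05, 119 (13.6%) were higher and 85 (9.68%) lower; DESeq2 called 76 (8.66%) higher and 35 (3.99%) lower, and limma-voom called 0.

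miR-490-3p, the guide arm, was lower in every CRC mouse than in every healthy mouse. It had 234, 104 and 72 reads in CRC mice M4, M5 and M6, against 1803, 2042 and 518 reads in healthy mice M1, M2 and M3. On the TMM scale these counts came to 37.4, 18.8 and 15.3 CPM in CRC mice M4, M5 and M6, against 202, 230 and 57.0 CPM in healthy mice M1, M2 and M3. M1 and M2 stood far above the other mice, and M3 was the healthy mouse closest to the CRC group. The means were 23.8 ± 11.9 CPM in CRC and 163 ± 92.6 CPM in healthy mice (SD, n = 3 each). The fitted log2 fold change was -2.77 (SE 0.63). No other tested miRNA had a lower log2 fold change, a position that the choice of miR-490 by its levels makes likely. Over the 878 tested miRNAs the median was -0.03, and 109 of them (12.4%) had every CRC mouse below every healthy mouse, as 124 (14.1%) had every CRC mouse above. In bulk tissue, fewer cells of a type and less miRNA per cell cannot be told apart.

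The distance between the groups depended on which mice were set against each other. The level in CRC mouse M4 was 0.655 of that in healthy mouse M3, whereas the mean of M5 and M6 was 0.0791 of the mean of M1 and M2. On total reads these ratios were 0.563 and 0.185. Without M3 and M4 the log2 fold change was -3.95 (SE 0.30, n = 2 each). Scaled by total reads alone, it was -1.97 (SE 0.52), on a scale where the median of all tested miRNAs was 0.62. Leaving out 1 mouse at a time gave values between -3.23 and -2.24.

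The order of the mice was not resolved everywhere. On total reads, miR-490-3p had 22.5 CPM in M6 (95% exact binomial interval 17.6 to 28.3), 29.2 in M5 (23.8 to 35.3) and 35.4 in M4 (31.0 to 40.3), the CRC mice, whose neighbouring intervals overlapped. In the healthy mice it had 63.0 CPM in M3 (57.7 to 68.7), 134 in M2 (128 to 140) and 145 in M1 (139 to 152). The intervals of M1 and M2 overlapped as well, and TMM scaling put M2 above M1. The differences between M4 and M3 and between M3 and M2 were wider than the counting error. These intervals cover counting error only, not the variation between mice. Reads lacking molecular identifiers are not independent molecules, so the intervals may be too narrow even for that error. By read count, miR-490-3p ranked 295th, 390th and 420th of the 1915 entries in CRC mice M4, M5 and M6, against 160th, 155th and 251st in healthy mice M1, M2 and M3.

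**Figure D1:**
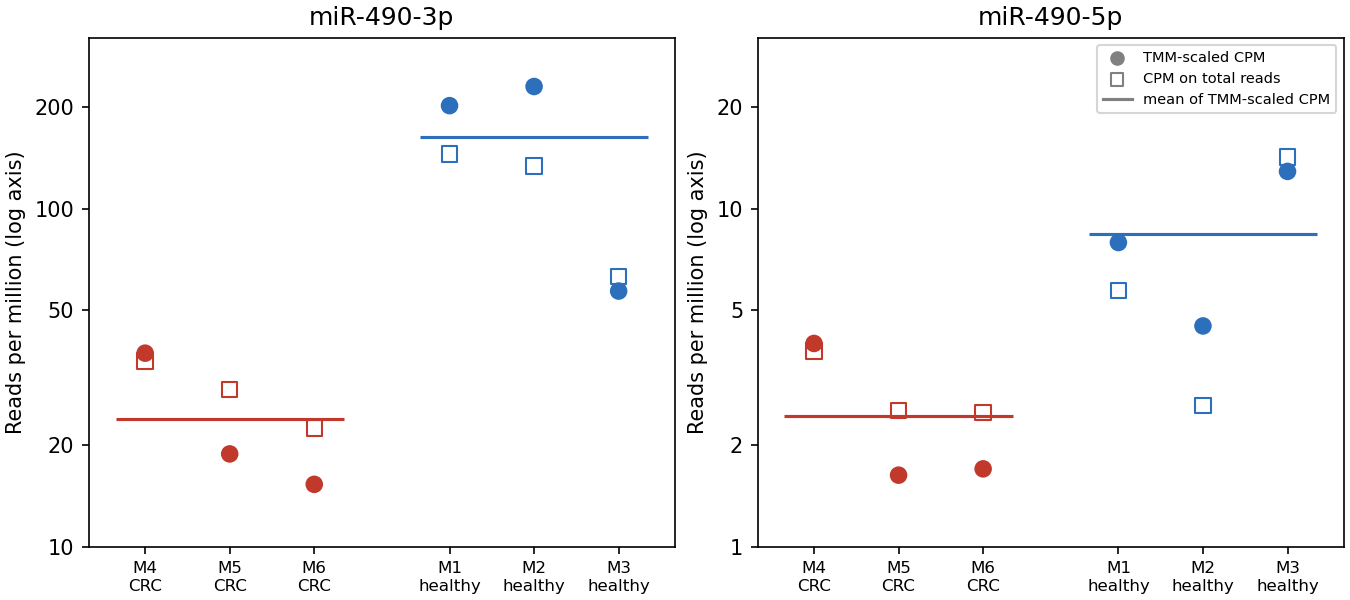
Levels of miR-490-3p (left) and miR-490-5p (right) in each mouse, in CPM on log axes, with CRC mice in red and healthy mice in blue. Filled points are TMM-scaled CPM with the group mean as a line, and open squares are CPM on total reads. The 3 CRC mice lie below the 3 healthy mice for miR-490-3p on both scales, while for miR-490-5p the open squares of M4 (3.79) and M2 (2.62) overlap across groups.

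miR-490-5p, the passenger arm, was rare and its mice were ordered differently. It had 25, 9 and 8 reads in CRC mice M4, M5 and M6, against 71, 40 and 117 reads in healthy mice M1, M2 and M3. On the TMM scale the levels were 3.99, 1.63 and 1.70 CPM in CRC mice M4, M5 and M6, against 7.94, 4.50 and 12.9 CPM in healthy mice M1, M2 and M3. The highest level was thus in M3, the healthy mouse with the least miR-490-3p. The means were 2.44 ± 1.34 CPM in CRC and 8.44 ± 4.21 CPM in healthy mice (SD, n = 3 each). The fitted log2 fold change was -1.77 (SE 0.60), and 36 of the 878 tested miRNAs had a lower value. Both arms passed the filter on low counts, which asked for 1.35 CPM on total reads in 3 mice, in all 6 mice.

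The groups did not overlap for miR-490-5p on the TMM scale, but the gap was narrow: 3.99 CPM in CRC mouse M4 against 4.50 CPM in healthy mouse M2. On total reads they overlapped, with 3.79 CPM (95% exact binomial interval 2.45 to 5.59) in M4 above 2.62 CPM (1.87 to 3.56) in M2, values whose intervals also overlapped. The log2 fold change was -1.33 (SE 0.71) on that scale. Its values were negative in every other alternative in which the entry could be fitted. Pearson's r between the arms was 0.63 and Spearman's rho 0.71 over the 6 mice on the TMM scale. The arms share hairpin, libraries and scaling, and the mice form clusters, so this is a description only.

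The 5p share of the miR-490 reads was lowest in M1 and M2 and highest in M3. The 5p arm made up 9.65% of the miR-490 reads in M4 (95% exact binomial interval 6.34% to 13.9%, 259 reads), 7.96% in M5 (3.71% to 14.6%, 113 reads) and 10.0% in M6 (4.42% to 18.8%, 80 reads), the CRC mice. In the healthy mice it made up 3.79% in M1 (2.97% to 4.76%, 1874 reads), 1.92% in M2 (1.38% to 2.61%, 2082 reads) and 18.4% in M3 (15.5% to 21.7%, 635 reads). The intervals of the 3 CRC mice overlapped. The healthy mice spanned them: M1 and M2 lay below each CRC share and M3 above, although the interval of M1 met those of M5 and M6, and the interval of M3 met that of M6. As numbers of 3p reads for each 5p read, this was 9.36, 11.6 and 9 in CRC mice M4, M5 and M6, against 25.4, 51.0 and 4.43 in healthy mice M1, M2 and M3.

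The group means of the 5p share were 9.21% ± 1.09 in CRC and 8.05% ± 9.04 in healthy mice (SD, n = 3 each), a difference smaller than the spread among healthy mice. That difference, CRC minus healthy, was 1.16 percentage points with all mice and 6.35 without M3. It was -0.97 without M1 and -1.90 without M2, so its sign rested on single healthy mice. In each mouse miR-490-3p remained the more abundant arm.

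**Figure D2:**
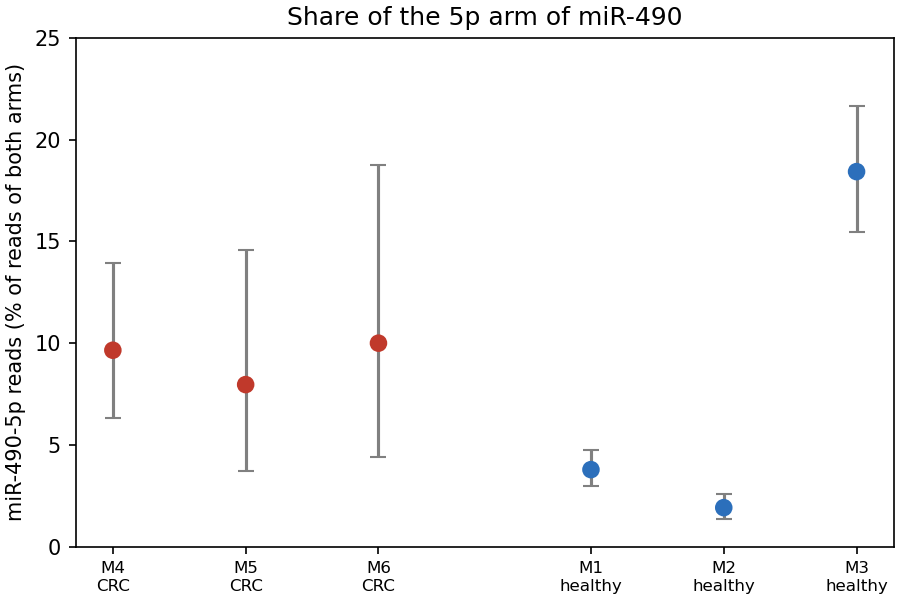
Share of miR-490-5p in the reads of both miR-490 arms, in percent, for each CRC mouse (red) and healthy mouse (blue). Bars are 95% exact binomial intervals, which cover counting error only. The CRC shares lie between 7.96% and 10.0%, between those of M1 and M2 below and that of M3 above.

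The high 5p share in M3 was set beside the other hairpins with both arms measured. For 234 hairpins with a mean of at least 10 reads on each arm, the log2 ratio of the rarer to the more abundant arm in M3 was compared with the mean of M1 and M2. The shift was 3.01 for miR-490, against a median of 0.02 and a range of -1.66 to 1.78 between the 10th and 90th percentiles. Only 3 of the 234 hairpins, miR-490 among them, shifted by this much or more. The others were miR-99a and miR-450b, named after their values were seen. The contrast of M3 with M1 and M2 was itself taken from the miR-490 shares, so a large shift of miR-490 follows from that choice. In the smooth muscle hairpins the rarer arm was a larger share in M3 than in M1 and M2. For miR-143 it was 0.638% in M3, against 0.256% in M1 and 0.225% in M2. For miR-145a it was 0.487% in M3, against 0.301% in M1 and 0.207% in M2. Their shifts, 1.42 for miR-143 and 0.97 for miR-145a, lay between the 10th and 90th percentiles of all 234 hairpins, unlike that of miR-490. Whether the profile of M3 differs in tissue composition or in library preparation was not tested.

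The lower level of miR-490-3p was set beside that of other muscle miRNAs inside each profile, where ratios of reads need no scaling between mice. Among the partners, miR-145a-5p and miR-143-3p come from 1 cluster and maintain the contractile state of smooth muscle. The others were miR-1a-3p and miR-133a-3p, miRNAs of cardiac and skeletal muscle that are also found in smooth muscle. For each 1000 miR-145a-5p reads there were 0.238, 0.859 and 0.642 miR-490-3p reads in CRC mice M4, M5 and M6, against 0.522, 0.365 and 0.482 in healthy mice M1, M2 and M3. The groups overlapped, with M4 lowest and M5 and M6 above all healthy mice. The mean log2 ratio was 0.17 higher in CRC with a between-mouse SD of 0.71, and this difference turned to -0.21 without M5.

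For each 1000 miR-143-3p reads there were 0.626, 0.817 and 0.763 miR-490-3p reads in CRC mice M4, M5 and M6, against 1.08, 1.22 and 0.822 in healthy mice M1, M2 and M3. The groups did not overlap, but M5 and M3 were almost level. The difference in the mean log2 ratio, CRC minus healthy, was -0.49 with a between-mouse SD of 0.25.

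For each 1000 miR-1a-3p reads there were 43.3, 57.7 and 40.6 miR-490-3p reads in CRC mice M4, M5 and M6, against 64.3, 66.4 and 52.3 in healthy mice M1, M2 and M3. Here the groups overlapped through M5 and M3, and the difference in the mean log2 ratio was -0.38 with a between-mouse SD of 0.23.

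The ratio to miR-133a-3p varied most. For each 1000 miR-133a-3p reads there were 94.4, 124 and 86.4 miR-490-3p reads in CRC mice M4, M5 and M6, against 481, 450 and 56.0 in healthy mice M1, M2 and M3. M3 lay below all CRC mice, and M1 and M2 far above them. The difference in the mean log2 ratio was -1.19 with a between-mouse SD of 1.26. It was -2.21 without M3, -0.66 without M1 and -0.71 without M2. In M3 miR-133a-3p itself was high, at 1019 CPM against 419 CPM in M1 and 511 CPM in M2. The skeletal muscle miRNA miR-206-3p was high in M3 and in M4: it had 136, 1.99 and 24.0 CPM in CRC mice M4, M5 and M6, against 2.46, 2.25 and 138 CPM in healthy mice M1, M2 and M3. Its part in the ratio was not tested.

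**Figure D3:**
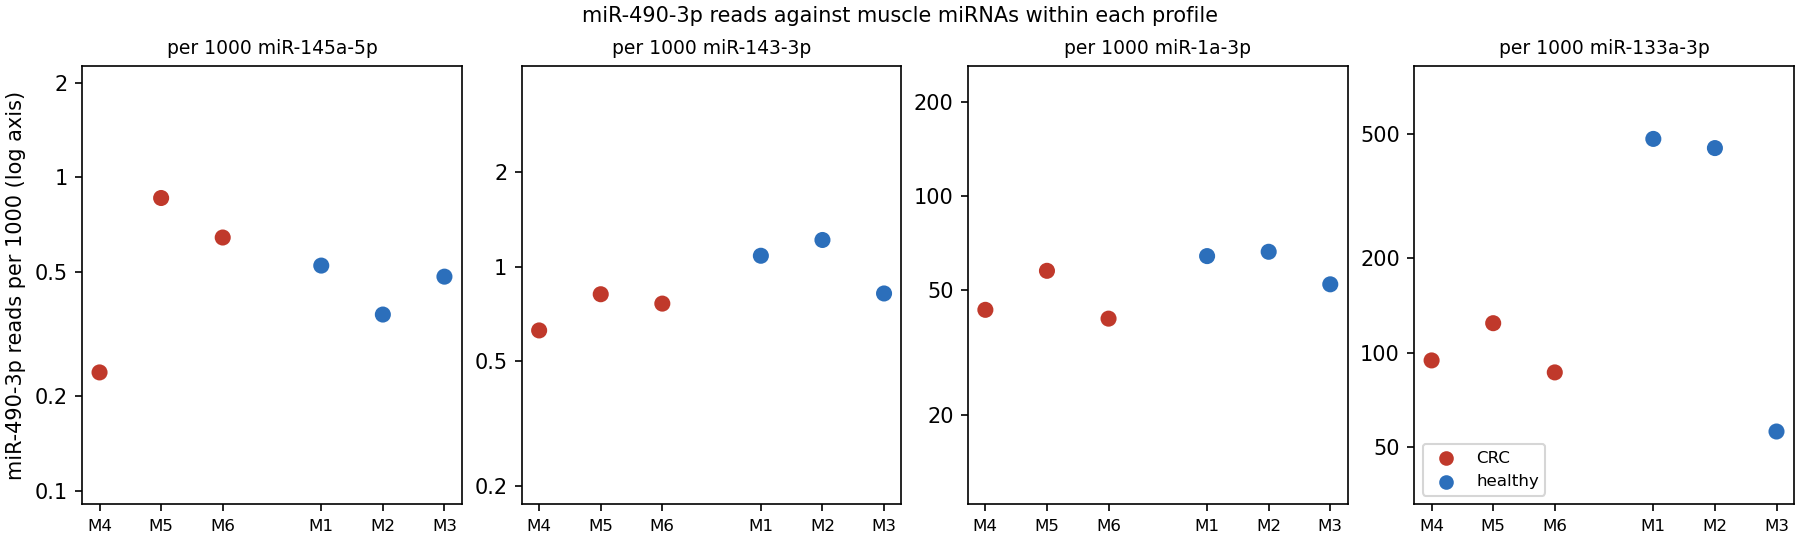
Reads of miR-490-3p for each 1000 reads of miR-145a-5p, miR-143-3p, miR-1a-3p and miR-133a-3p in each profile, CRC mice in red and healthy mice in blue. The 4 log axes span the same fold range, so distances can be compared between panels. The ratio to miR-1a-3p varies least, from 40.6 to 66.4, and the ratio to miR-133a-3p most, from 56.0 to 481.

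A list of smooth and striated muscle miRNAs gave the wider setting. It held 19 entries in the table, of which 12 passed the filter on low counts. At an adjusted p of 0.05 edgeR called 0 of the 12 lower and 0 higher, against 0% and 2.28% of all tested miRNAs. At an unadjusted p under 0.05, 10 were lower in CRC, against 9.68% of all tested miRNAs. For 8 of the 12 every CRC mouse lay below every healthy mouse, as for 12.4% of all tested miRNAs. Their median log2 fold change was -1.78, against -0.03 over all tested miRNAs. DESeq2 with all mice called 6 of the 12 lower, against 3.99% of all tested miRNAs. The filter passed 14 members of the list when mice M3 and M4, or M4 alone, were left out. Without M4 edgeR called 9 of the 14 lower and 1 higher, against 5.64% and 14.3% of all tested miRNAs. Without M3 and M4 it called 10 of the 14 lower and 1 higher, against 27.4% and 25.8%, so that over all miRNAs 576 of 1082 were called there. The median of the 14 without M3 and M4 was -2.67, against 0.12 over all miRNAs tested there. The list was chosen with earlier results of these data known and its entries include both arms of single hairpins, so it is no independent evidence of a direction.

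Within the list, log2 fold changes were -2.48 (SE 0.84) for miR-145a-5p, -2.30 (SE 0.57) for miR-1a-3p, -2.11 (SE 0.54) for miR-143-3p and -2.02 (SE 0.52) for miR-1a-2-5p. They were -1.88 (SE 0.49) for miR-133a-5p, -1.84 (SE 0.62) for miR-145a-3p, -1.72 (SE 0.65) for miR-1a-1-5p and -1.51 (SE 0.64) for miR-143-5p. miR-133b-3p had -1.47 (SE 0.60) and miR-133a-3p -1.43 (SE 0.54). The value of miR-490-3p was thus below, and that of miR-490-5p within, the range of these 10. As miR-490 was chosen by its levels, this position is no evidence of a larger fall. The values of miR-490-3p and miR-145a-5p also lay closer together than either SE. The exceptions were miR-206-3p at 0.18 (SE 1.58) and miR-499-5p, a heart and slow skeletal muscle miRNA, at 1.23 (SE 1.09). The entries that did not pass the filter were miR-133b-5p, miR-206-5p, miR-499-3p and both arms of miR-208a and miR-208b, miRNAs of cardiac myosin genes. No arm of miR-208a or miR-208b exceeded 0.958 CPM in any mouse, and miR-208b-5p was at 0 reads in all.

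**Figure D4:**
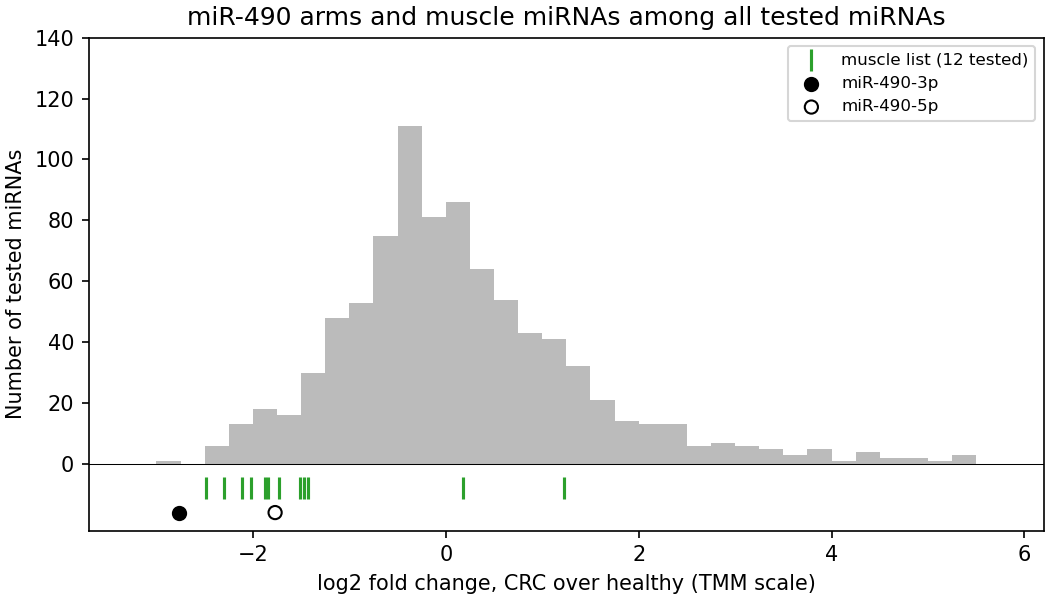
Histogram of log2 fold changes, CRC over healthy on the TMM scale, of the 878 tested miRNAs. Green ticks mark the 12 tested members of the muscle list, the filled point miR-490-3p (-2.77) and the open point miR-490-5p (-1.77). 10 of the 12 ticks lie left of 0, with a median of -1.78.

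Like miR-490-3p, the summed muscle list was highest in M1 and M2 and lowest in M5 and M6. It took 20.8%, 7.08% and 6.56% of all reads in CRC mice M4, M5 and M6, against 41.6%, 48.0% and 21.1% in healthy mice M1, M2 and M3. Nearly all of this was miR-145a-5p and miR-143-3p, with 27.8% and 13.4% of all reads in M1 and 3.40% and 3.57% in M5. The sum therefore says little of the other members, of which miR-133a-3p, miR-133b-3p and miR-206-3p were highest in M3. On the TMM scale the sum was between 44705 and 218852 CPM in CRC and between 191264 and 824191 CPM in healthy mice, and M4 stood above M3, whereas for miR-490-3p M4 stood below M3. At an adjusted p of 0.05 edgeR called 0 of the 12 tested enteric nerve and glia markers. Over all tested miRNAs it called 2.28% higher and 0% lower. The enteric markers summed to between 556 and 904 CPM in CRC and between 1138 and 1606 CPM in healthy mice. These sums did not overlap on the TMM scale, but as shares of all reads they did (0.0816% to 0.105% in CRC and 0.0935% to 0.126% in healthy mice). The median log2 fold change of the list was -0.70. Of the 12, 3 were lower at an unadjusted p under 0.05, against 9.68% of all tested miRNAs. For 5 of the 12 every CRC mouse lay below every healthy mouse, against 12.4% of all tested miRNAs. The most abundant members of the list were miR-218-5p (log2 fold change -0.50, SE 0.42) and miR-7b-5p (log2 fold change -2.07, SE 0.58). For neither list was the part in the level of miR-490 tested.

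The summed levels of the lists for other cells overlapped between the groups. At an adjusted p of 0.05, 0 members of these lists were called, against 2.28% of all tested miRNAs higher and 0% lower. Intestinal epithelium (19 tested) was well represented: it summed to between 88916 and 167451 CPM in CRC and between 113525 and 221090 CPM in healthy mice, led by miR-192-5p (log2 fold change -0.18, SE 0.44) and miR-200a-3p (-0.67, SE 0.33). The median of the 19 was -0.84, and 17 had a negative log2 fold change. Of the 19, 3 were lower at an unadjusted p under 0.05, against 9.68% of all tested miRNAs. For 4, miR-200a-3p among them, every CRC mouse lay below every healthy mouse, against 12.4% of all tested miRNAs. Fibroblast stroma (6 tested) summed to between 5089 and 12151 CPM in CRC and between 7522 and 15652 CPM in healthy mice. Its most abundant members were miR-214-3p (-0.23, SE 0.45) and miR-199a-3p (-0.61, SE 0.49). All 6 had a negative log2 fold change. Of the 6, 1 was lower at an unadjusted p under 0.05 (miR-199b-5p, -2.03, SE 0.64), against 9.68% of all tested miRNAs. Endothelium (2 tested) lay between 9384 and 12684 CPM in CRC and between 10998 and 13516 CPM in healthy mice, with miR-126a-3p at -0.20 (SE 0.34) and miR-126a-5p at 0.58 (SE 0.45). Immune cell markers (11 tested) lay between 8123 and 10198 CPM in CRC and between 4845 and 17444 CPM in healthy mice. Their leading members were miR-142a-3p (0.16, SE 0.91) and miR-223-3p (-0.01, SE 0.46). Of the 11, 1 had every CRC mouse above every healthy mouse, against 14.1% of all tested miRNAs. At an unadjusted p under 0.05, 1 of the 11 was higher, against 13.6% of all tested miRNAs. Of the healthy mice, M3 had the highest immune sum and the lowest miR-490-3p level. Red blood cell markers (5 tested) lay between 489 and 1897 CPM in CRC and between 299 and 580 CPM in healthy mice, led by miR-451a (1.45, SE 0.53) and miR-144-3p (1.65, SE 0.87). Their median log2 fold change was 1.45. Of the 5, 2 were higher at an unadjusted p under 0.05, against 13.6% of all tested miRNAs. For 1 of the 5 every CRC mouse lay above every healthy mouse, against 14.1% of all tested miRNAs. The medians were -0.60 for fibroblast stroma, 0.19 for endothelium and 0.16 for immune cells. The part of these cells in the level of miR-490 was not tested.

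The miRNAs whose levels followed miR-490-3p most closely were found among 303 tested miRNAs that averaged 50 CPM or more in either group, by Pearson's r of log2(TMM CPM + 1) over the 6 mice. The 10 closest, with r between 0.986 and 0.997, were miR-300-3p, miR-124-3p, miR-30c-5p, miR-26a-5p, miR-1a-3p, miR-1b-5p, miR-127-5p, miR-143-3p, miR-139-5p and miR-138-5p. These correlations share libraries and scaling, and the mice lie in neighbouring pairs, so high values were common: 59 of the 303 (19.5%) reached 0.9, and the median was 0.47. Without M3 only 6 of the 10 stayed among the closest, and without M4 only 4; ranking by Spearman's rho kept 6.

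The closest miRNAs included 2 of the muscle list. Over the list, r was 0.991 for miR-1a-3p, 0.988 for miR-143-3p, 0.955 for miR-145a-3p, 0.954 for miR-145a-5p and 0.953 for miR-133a-5p. It was 0.84 for miR-143-5p, 0.62 for miR-133a-3p, 0.47 for miR-133b-3p and -0.36 for miR-206-3p. The muscle miRNAs thus did not all share the pattern: miR-133a-3p, miR-133b-3p and miR-206-3p, all high in M3, departed from it. Outside the list, miR-124-3p, a neuronal miRNA, had 66.7, 28.9 and 26.6 CPM in CRC mice M4, M5 and M6, against 269, 268 and 83.2 CPM in healthy mice M1, M2 and M3 (log2 fold change -2.34, SE 0.60). miR-300-3p, of the imprinted Dlk1-Dio3 cluster, had 51.1, 35.5 and 34.6 CPM in CRC mice M4, M5 and M6, against 171, 186 and 76.5 CPM in healthy mice M1, M2 and M3 (log2 fold change -1.84, SE 0.48). In each of these miRNAs M1 and M2 were highest and M5 and M6 lowest, with smaller spans than in miR-490-3p.

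The abundant miR-30c-5p and miR-26a-5p followed the same order with flatter profiles, at -1.003 (SE 0.35) and -1.21 (SE 0.41) for CRC over healthy. miR-127-5p, also of the Dlk1-Dio3 cluster, had -1.48 (SE 0.50), miR-138-5p -1.72 (SE 0.49) and miR-139-5p -1.18 (SE 0.43). miR-1b-5p had -2.32 (SE 0.59); the handling of strands in counting is not stated in the labels, and its reads may not be separate from those of miR-1a-3p. None of the 10, all lower in CRC, was called at an adjusted p of 0.05, where edgeR called 0 of 878 tested miRNAs lower. For 6 of the 10 the sequences from RefSeq (GRCm38.p6) are shown with seeds in capitals, so that they can be read beside that of miR-490-3p above.
miR-300-3p: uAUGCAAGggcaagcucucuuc
miR-30c-5p: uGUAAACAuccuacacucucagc
miR-26a-5p: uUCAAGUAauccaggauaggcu
miR-127-5p: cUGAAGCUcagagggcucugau
miR-139-5p: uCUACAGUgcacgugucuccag
miR-138-5p: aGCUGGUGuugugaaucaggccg
All 6 seeds differ from one another. They also differ from both seeds of miR-490, as does that of every other entry of the table.

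**Figure D5:**
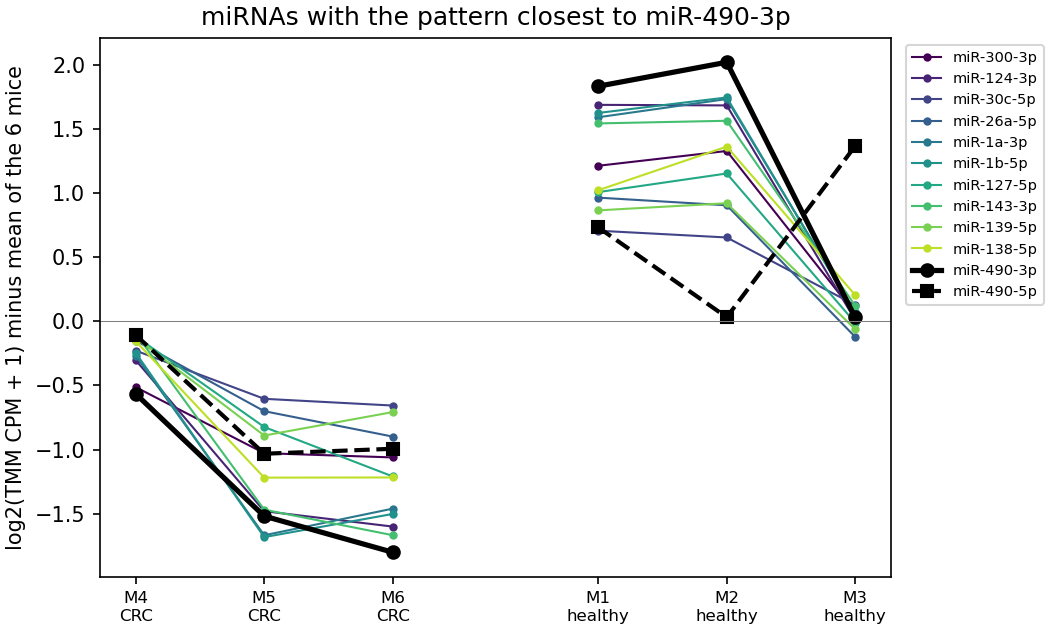
Level of miR-490-3p (thick black), miR-490-5p (dashed) and the 10 miRNAs closest to miR-490-3p in each mouse, as log2(TMM CPM + 1) minus the mean of the 6 mice. Lines join values of 1 miRNA within a group and carry no order of mice. The 10 miRNAs follow miR-490-3p with r of at least 0.986, whereas miR-490-5p (r of 0.63) peaks in M3.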

How the data were processed

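Per the labels' protocols, colorectal small RNA of 6 mice was sequenced single-end on an Ion Proton with Ion Total RNA-Seq libraries. Per the submitters' processing notes, BWA aligned the reads to mm10 (GRCm38). What the authors deposited is 1 table of raw read counts, not normalized, for 1915 mature miRNAs; its handling of strands and of multiply matching reads is not given in the sources used. Groups come from the labels; mice are separate animals. The M1 column shows the mouse but not which of its 2 libraries, and served as 1 replicate.

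Counts were fitted with edgeR 4.0.16 (R 4.3.3): TMM, filterByExpr (878 kept), robust dispersions and glmQLFTest, two-sided, Benjamini-Hochberg over all tested miRNAs at 0.05. SE is the log2 fold change divided by the square root of F. The step was tested on simulated counts. Alternatives were other scalings and filters, DESeq2 1.42.0, limma-voom (limma 3.58.1), a non-robust fit and leaving out mice. The hairpin was folded with RNAfold 2.7.2. Loci are from GENCODE M21, sequences from RefSeq (both members matched by name).

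The members, lists and tests were chosen with earlier results of these data known. Named by rule were both arms, the muscle list, the 10 miRNAs closest to miR-490-3p and the 2 most abundant members of each other marker list; other names followed from their values. A count of 0 allows up to 0.637 CPM on the TMM scale in the shallowest profile (3 counts).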

Additional observations from a re-analysis of the deposited data

How the results depend on the processing

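The log2 fold change of miR-490-3p was negative in all 15 alternatives (-3.95 without M3 and M4 to -1.97 on total counts), and that of miR-490-5p in the 14 in which it could be fitted (-2.25 to -1.33); the filter at 50 CPM removed miR-490-5p. Leaving out 1 mouse gave -3.23 to -2.24 for miR-490-3p and -2.25 to -1.39 for miR-490-5p. Over all miRNAs edgeR's 20 calls became 43 on total counts (42 higher, 1 lower), 64 with no filter, 0 with the filter at 50 CPM (76 at an unadjusted p under 0.05) and 576 without M3 and M4; DESeq2 called 111 and limma-voom 0 (216 at an unadjusted p under 0.05). Leaving out 1 mouse gave 0 to 237 calls: 0 without M1, M5 or M6 (181, 121 and 131 at an unadjusted p under 0.05), 4 without M2, 63 without M3 and 237 without M4. Calls in the muscle list were 0 of 12 tested, beside 20 of 878 over all miRNAs. On total counts 1 of 12 was called, lower, beside 43 of 878. With no filter 3 of 18 were called (1 higher, 2 lower), beside 64 of 1914. DESeq2 called 6 of 12, all lower, beside 111 of 878. Without M3 and M4, 11 of 14 were called (1 higher, 10 lower), beside 576 of 1082. Leaving out 1 mouse gave 0 to 10 calls. The 10, of 14 tested (1 higher, 9 lower), came without M4, beside 237 of 1188. Of the 10 miRNAs closest to miR-490-3p, 6 remained by Spearman's rho and 4 to 10 when leaving out 1 mouse. The difference in the 5p share ranged from -1.90 to 6.35 percentage points and that of the log2 ratio to miR-145a-5p from -0.21 to 0.72. The cause of these changes was not tested. Counts of 8 to 25 reads in the CRC mice limit the precision of miR-490-5p. No paired analysis was possible because the labels number the mice M1 to M6 across the groups, and no number is shared.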
